A study of Mus musculus with 4 samples.

Results

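The cytochrome P450 genes (Cyp genes) are the mouse genes whose symbol is Cyp followed by a digit, and 98 of the 21418 autosomal protein-coding genes of the GENCODE M1 annotation met that rule. They encode haem monooxygenases that insert an oxygen atom into small lipophilic molecules. Families 1 to 3 mostly oxidise foreign compounds, family 4 acts on fatty acids, and the remaining families make or clear steroids, bile acids, vitamin D and retinoic acid. In the gut epithelium, P450s of the first group meet dietary compounds before they reach the liver. Cytosine methylation at CpG sites is a stable mark of the DNA that is usually absent from active CpG-rich promoters.

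Whole-genome bisulfite sequencing measured CpG methylation in 4 libraries from mouse colon, 1 library for each group. The groups were Lgr5-EGFP+ intestinal stem cells (ISCs) and EpCAM+ Lgr5-EGFP- epithelial cells, called differentiated cells here, each at postnatal day 0 (P0) and at postnatal day 21 (P21, the end of suckling). All animals were offspring of Lgr5-EGFP-CreER mice, a knock-in in which the endogenous Lgr5 sequences drive EGFP and a Cre recombinase, crossed with wild-type C57 mice. Animals were pooled for each library, litters at P0 and Lgr5-EGFP+ offspring at P21, so the kind of pool differed with age. The paper describes Cre from this allele as mosaic and shows EGFP-negative crypts that hold stem cells. The EGFP- cells may thus include unlabelled stem cells. For P0 the paper states no selection of EGFP+ pups, so the EGFP- cells of that age may also include stem cells of pups without the allele. Neither was tested. Since no group had a second library, each test compared libraries and the variation between animals could not be measured.

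The autosomal reference holds 20364700 CpGs, of which 93.5 to 97.3% had a call, at a median of 16 to 25 calls per CpG and 1011013849 to 1172882021 calls per library. The genome was divided into bins of 200 bp, and testing a bin required 2 or more CpGs in it and a minimum of 10 calls from each library. In the Cyp genes 3617 of 4363 bins with 2 CpGs were tested (82.9%, against 86.4% for the bins of all genes), at a median of 54, 57, 83 and 70 calls per bin. All sets of 4 values are given in the order ISCs at P0, ISCs at P21, differentiated cells at P0 and differentiated cells at P21. The level of a region is the share of calls that were methylated, over its tested bins. Intervals are 95% Wilson intervals, which cover counting error only. They take each call as independent, although a read can hold calls of several CpGs and PCR copies of a molecule were not marked. Intervals can therefore be too narrow and p-values too small, even for counting error. A promoter is the sequence within 1000 bp of the transcription start site (TSS), a bin belongs to a CpG island (CGI) where 25 CpGs lie within 500 bp, and the body is the rest of the transcript without the last exon. Of 8 epithelial markers, the promoters of 7 were at 18.5% or less in every library and that of Krt20 was at 52, 52.1, 55.4 and 51.4%. The promoters of the epithelial genes Epcam (4.18, 2.63, 2.58 and 2.01%), Cdh1 (2.54, 3.45, 2.43 and 3.21%) and Cdx2 (1.56, 1.05, 0.828 and 0.757%) were nearly unmethylated, and those of the leukocyte genes Ptprc (74.2, 70.7, 77 and 67.1%) and Cd3e (88, 86.5, 87.1 and 89%) were methylated, as were those of the endothelial genes Pecam1 and Cdh5 at 69.1 to 80.4%. Of 3 listed liver genes without a CGI bin, 1 was at 10.4% or less in every library, Apoa2 was at 73.8 to 81.8% and Alb moved between libraries, at 61.4, 77.8, 64.6 and 55.5%, and its part in the results below was not tested. CpG-island promoters of mesenchymal Pdgfra and Vim and endothelial Kdr were at 3.63% or less in every library and so do not mark their cells here. Mesenchymal Col1a2 (3.53, 8.55, 5.45 and 7.68%) and Col1a1 (16.8, 17.1, 13.5 and 18.8%) were also low, without a CGI bin, whereas Acta2, also without one, was at 47.6, 51.2, 44.1 and 51.8%. The promoter of Lgr5, the gene that marks the sorted stem cells, was at 2.97, 1.49, 1.75 and 5.77%, and of the other stem cell genes listed, Ascl2 and Smoc2 were at 6.9% or less in every library and Olfm4 was at 38.7, 42.9, 36.7 and 31.2%.

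Sequence was read from the mm9 genome (NCBIM37) and is written 5′ to 3′ on the strand of the gene, with each CpG in capitals. The first 5 stretches carry the changes with age described below: 2 bins of Cyp26c1 that gained methylation, and bins of Cyp2w1, Cyp2j5 and Cyp3a13 that lost it. Each was, within the promoter, body and last exon, the bin with the largest mean change on its side of the gene start. Only bins called in both populations were considered, and bins farther upstream were not. They lie at chr19:37759601-37759800 (upstream of Cyp26c1, plus strand), chr19:37760801-37761000 (Cyp26c1, the end of intron 1 and 74 coding bases of exon 2, plus strand), chr5:139828001-139828201 (upstream of Cyp2w1, plus strand), chr4:96329801-96330000 (Cyp2j5, intron 1, 163 coding bases of exon 2 and intron 2, minus strand) and chr5:138356801-138357000 (Cyp3a13, intron 3, 100 coding bases of exon 4 and intron 4, minus strand).
Cyp26c1 upstream: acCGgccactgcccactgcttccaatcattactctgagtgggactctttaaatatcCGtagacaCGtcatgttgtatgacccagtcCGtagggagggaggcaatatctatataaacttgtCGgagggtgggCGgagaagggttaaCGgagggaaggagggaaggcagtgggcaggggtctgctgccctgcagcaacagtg
Cyp26c1 exon 2: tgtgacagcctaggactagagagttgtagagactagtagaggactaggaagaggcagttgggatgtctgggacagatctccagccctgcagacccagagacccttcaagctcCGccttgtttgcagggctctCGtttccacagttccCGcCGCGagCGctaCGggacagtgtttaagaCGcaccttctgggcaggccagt
Cyp2w1 upstream: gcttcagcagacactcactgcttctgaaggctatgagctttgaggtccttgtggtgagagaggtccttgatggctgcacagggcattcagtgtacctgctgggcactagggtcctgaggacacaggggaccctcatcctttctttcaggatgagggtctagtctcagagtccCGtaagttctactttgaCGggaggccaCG
Cyp2j5 exon 2: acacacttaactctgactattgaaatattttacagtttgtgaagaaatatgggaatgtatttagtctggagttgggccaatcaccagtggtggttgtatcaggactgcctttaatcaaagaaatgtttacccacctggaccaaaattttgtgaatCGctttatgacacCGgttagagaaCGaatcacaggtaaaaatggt
Cyp3a13 exon 4: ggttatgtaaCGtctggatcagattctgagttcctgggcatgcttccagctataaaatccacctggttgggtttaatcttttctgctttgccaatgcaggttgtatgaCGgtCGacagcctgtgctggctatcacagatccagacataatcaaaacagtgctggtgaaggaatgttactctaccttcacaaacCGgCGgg

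The next 4 stretches are the coding part of the last exon, without the stop codon, of 3 Cyp4f genes and of Cyp4b1, which belongs to the same family. They are printed because they show how dense CpGs are at the end of the Cyp4f genes, where levels were 18.1% or less, against a relative in which the same part of the protein is encoded with few CpGs. They lie at chr17:33061725-33061899 (Cyp4f13, minus strand), chr17:32839734-32839902 (Cyp4f15, plus strand), chr8:74512462-74512636 (Cyp4f18, minus strand) and chr4:115297653-115297833 (Cyp4b1, minus strand).
Cyp4f13: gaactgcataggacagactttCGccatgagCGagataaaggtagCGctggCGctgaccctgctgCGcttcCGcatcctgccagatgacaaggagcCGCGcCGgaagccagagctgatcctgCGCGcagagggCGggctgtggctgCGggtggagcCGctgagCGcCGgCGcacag
Cyp4f15: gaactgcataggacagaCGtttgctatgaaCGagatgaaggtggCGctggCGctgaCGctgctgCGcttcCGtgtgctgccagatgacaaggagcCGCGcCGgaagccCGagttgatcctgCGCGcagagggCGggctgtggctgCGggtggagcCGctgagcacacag
Cyp4f18: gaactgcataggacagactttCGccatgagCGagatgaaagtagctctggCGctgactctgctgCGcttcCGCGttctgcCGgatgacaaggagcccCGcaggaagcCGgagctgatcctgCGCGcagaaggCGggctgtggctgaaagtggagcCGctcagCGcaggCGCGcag
Cyp4b1: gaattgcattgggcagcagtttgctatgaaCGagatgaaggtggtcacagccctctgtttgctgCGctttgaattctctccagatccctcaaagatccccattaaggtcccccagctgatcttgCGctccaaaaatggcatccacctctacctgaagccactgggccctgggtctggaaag

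Most Cyp promoters were methylated in the colon. Of the 98 genes, 89 had a measured promoter, and the median level over these was 72.0, 66.0, 70.0 and 67.7%, against 12.2, 12.0, 8.31 and 8.85% for all 20520 measured promoters. Promoters below 20% numbered 20, 21, 21 and 22 of the 89. A CGI bin was present in 17 of the 89 Cyp promoters and in 12614 of all promoters. Among promoters without a CGI bin the median of the 72 Cyp genes (77.0, 74.2, 77.3 and 76.9%) was close to that of all 7906 such promoters (78.1, 77.2, 77.7 and 76.7%). Within each class, by CGI or not, Cyp promoters were near the level of other genes, and with a CGI bin their median was 7.7, 9.54, 4.71 and 6.44% against 4.54, 4.33, 2.68 and 2.9%. The promoters of Cyp3a25, Cyp2c38, Cyp2b9, Cyp2c37, Cyp3a59, Cyp2c54, Cyp2c65, Cyp3a57 and Cyp4a12b held no tested bin, nor did the body of Cyp8b1, which has a single exon. Last exons with no tested bin were those of Cyp2c29, Cyp2c39, Cyp3a25, Cyp2r1, Cyp11a1, Cyp2b9, Cyp3a44, Cyp2c50, Cyp3a11, Cyp2c70, Cyp3a59, Cyp4a10, Cyp2c66, Cyp2c68, Cyp2d37-ps, Cyp3a41a, Cyp3a41b, Cyp11b1, Cyp2j12 and Cyp2j7-ps. Of the measured bodies by subfamily, those of Cyp2c (67.9% of bins tested), Cyp3a (69.8%) and Cyp7b (70.2%) had the smallest shares of bins tested.

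**Figure D1:**
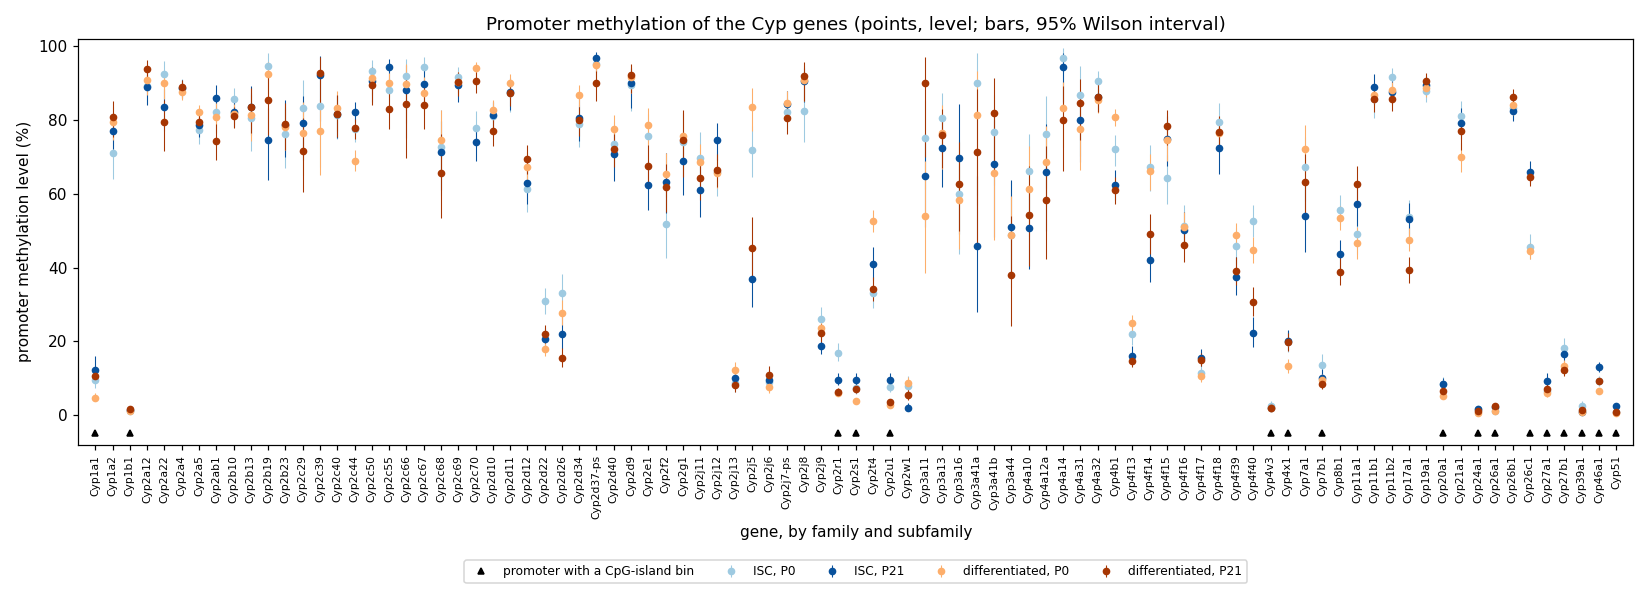
Promoter methylation level (y axis, %) of the 89 Cyp genes with a measured promoter (x axis, by family and subfamily) in the 4 libraries, with 95% Wilson intervals, and triangles under promoters with a CpG-island bin. The promoters with an island bin sit low apart from Cyp26c1, most of whose promoter bins lie outside islands, and most of the others lie above 50%.

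In the cholesterol and bile acid group, 5 of 7 promoters held a CGI and were low in every library. Cyp51, which demethylates lanosterol in cholesterol synthesis, was at 0.765, 2.44, 0.464 and 0.709%. Cyp39a1, an oxysterol hydroxylase of bile acid synthesis, was at 2.49, 0.85, 0.902 and 1.26%. Cyp27a1, the mitochondrial sterol 27-hydroxylase, was at 6.59, 9.36, 5.86 and 7.01%. Also low were Cyp46a1, the neuronal cholesterol 24-hydroxylase, at 9.15, 13, 6.45 and 9.28%, and Cyp7b1, the oxysterol 7-alpha-hydroxylase, at 13.5, 10, 9.55 and 8.48%. Cyp7a1, the rate-limiting enzyme of bile acid synthesis in the liver, was at 67.3, 54.1, 72.3 and 63.2%. Cyp8b1, which directs synthesis to cholic acid, was at 55.6, 43.7, 53.5 and 38.9%. Neither of these liver genes has a CGI bin in its promoter.

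The 3 listed enzymes of vitamin D metabolism had a CGI promoter at a low level. Cyp24a1, which inactivates the hormone and is a target of its receptor, was at 1.51, 1.66, 0.62 and 1.23%. Cyp2r1, a vitamin D 25-hydroxylase, was at 16.9, 9.54, 5.96 and 6.34%. Cyp27b1, which makes the active hormone, was at 18.1, 16.5, 13.2 and 12.2%. The Cyp27b1 body was also low (21.6, 20.3, 20 and 21.1%), whereas the median Cyp body was at 83.1, 83.7, 83.5 and 82.2%.

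Of the enzymes that oxidise aromatic hydrocarbons, Cyp1b1 was unmethylated at 1.2, 1.43, 0.979 and 1.59%. Cyp1a1, the prototype target of the aryl hydrocarbon receptor Ahr, was at 9.6, 12.2, 4.71 and 10.5%. Cyp1a2, its neighbour that is used mainly in liver, was at 71, 77, 79.4 and 80.7%. The members known from outside the liver were low and hold a CGI bin, and the liver member was high and holds none. Tissue of use and CGI class therefore cannot be told apart in these genes. Within the Cyp1a1 promoter the bin centred 919 bp before the TSS was at 0.541, 0, 0.35 and 0.249%, and the bin centred 119 bp before the TSS was at 20.8, 38.3, 26.2 and 34.1%. The bin centred 519 bp before the TSS was at 15.4, 23.4, 10.6 and 26.5% and rose with age in differentiated cells (adjusted p = 3.95e-05, Fisher's exact test). Of the core letters bound by Ahr and its partner, GCGTG searched on both strands, the Cyp1a1 promoter holds 6 matches, and 11.1% of all promoters hold at least as many (77.3% hold at least 1). The CpGs in the 5 matches from 984 to 491 bp before the TSS were at 0 to 10% in every library, at 4 to 71 calls. The CpG in the match 53 bp before the TSS was at 47.6, 78.9, 61.9 and 61.1%, at 18 to 21 calls. The upstream matches were unmethylated and the one beside the TSS was not. The promoter of the Ahr partner Arnt was unmethylated (0.973, 1.12, 0.611 and 0.903%) and those of Ahr itself (24.7, 20.8, 11.4 and 17.1%) and its repressor Ahrr (39.6, 39.8, 29 and 28.9%) were partly methylated.

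Among P450s of families 2 and 3 that act on foreign compounds, the epithelial enzyme Cyp2s1 had a low CGI promoter at 7.23, 9.63, 3.75 and 6.93%. Cyp2w1, an enzyme known from fetal gut and colorectal tumours, was low at 7.94, 1.81, 8.61 and 5.43% although its promoter holds no CGI bin. Cyp2d22, which oxidises basic drugs, was at 30.9, 20.5, 17.9 and 21.8%. The other 7 listed enzymes of this group were above 50% in every library. Cyp2b10, a target of the receptor Car, was at 85.8, 82.2, 81.7 and 81%. Cyp2e1, which oxidises ethanol, was at 75.7, 62.4, 78.7 and 67.6%. Cyp2a5, a coumarin hydroxylase, was at 77.2, 78.7, 82.1 and 79.6%. These levels were within the range of promoters without a CGI. Cyp2f2, an airway enzyme, was at 51.9, 63.3, 65.4 and 61.8%. Cyp2g1, an olfactory enzyme, was at 74, 68.8, 75.6 and 74.7%. Cyp3a13, the intestinal form of its subfamily, was at 80.5, 72.3, 76.4 and 75.9%, as high as the liver genes of this group. The 6 measured promoters of the Cyp3a subfamily held only 7 tested bins together. Cyp3a11, the main target of the receptor Pxr in liver and gut, was at 75, 64.7, 54.1 and 90%, from 1 bin at 20 to 51 calls. Pxr itself (Nr1i2) had an unmethylated promoter at 4.64, 0.44, 3.66 and 0.677%.

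Of the enzymes of arachidonic and other fatty acids, Cyp2u1 and Cyp4v3, which hydroxylate long-chain fatty acids, had unmethylated CGI promoters (7.7, 9.62, 2.76 and 3.52% and 2.57, 1.82, 1.94 and 1.86%). Cyp4x1, enriched in brain, was at 19.7, 20.1, 13.2 and 19.8%. Cyp2j6, an arachidonic acid epoxygenase, was low without a CGI at 9.02, 9.47, 7.63 and 10.8%. So was Cyp2j13, a related gene, at 8.58, 9.91, 12.3 and 8.19%. Cyp2j8 of the same subfamily stood at 82.5, 90.4, 91 and 91.8%, so that its members ranged from low to high. Cyp2c55, an arachidonic acid oxidase enriched in colon, had a methylated promoter at 88, 94.2, 89.9 and 83%. Cyp4a10 and Cyp4a14, targets of the receptor Ppara, were at 66.2, 50.7, 61.4 and 54.2% and at 96.8, 94.4, 83.3 and 80%. The 5 measured Cyp4a promoters held only 9 tested bins together. Cyp2c55 was thus as methylated as its subfamily, whose median was 83.9, 88.1, 87.4 and 84.1%. Of the Cyp4f genes, omega-hydroxylases of leukotrienes and fatty acids, Cyp4f17 was low at 11.4, 15.4, 10.5 and 15% and Cyp4f18 was high at 79.4, 72.3, 76.5 and 76.7%.

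The steroid hormone enzymes of adrenal and gonad had intermediate or high promoters. Cyp19a1, the aromatase, was at 87.9, 89.6, 88.8 and 90.7%. Cyp11b1 and Cyp11b2, of glucocorticoid and aldosterone synthesis, were at 85.7, 89.1, 86.8 and 85.6% and at 91.8, 87.7, 88.1 and 85.6%. Cyp21a1, the 21-hydroxylase, was at 81.2, 79.3, 70 and 77.1%. These were the high members. Cyp17a1, the 17-alpha-hydroxylase, was at 53.7, 53.1, 47.5 and 39.3%. Cyp11a1, which cleaves the side chain of cholesterol, was at 49.2, 57.1, 46.7 and 62.7%. The orphan enzyme Cyp20a1 had a low CGI promoter at 8.54, 8.3, 5.29 and 6.44%.

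The retinoic acid hydroxylases, which clear this morphogen, ranged from unmethylated to methylated. Cyp26a1 was unmethylated at 1.06, 2.17, 1.07 and 2.5%. Cyp26c1, its neighbour on chromosome 19, was at 45.6, 66, 44.5 and 64.5%. Among Cyp promoters that hold a CGI bin it alone was far above 20%, and Cyp4x1 was next, at 20.1% in ISCs at P21. Most of the 10 tested bins of the Cyp26c1 promoter lay outside CGIs. Without this gene the tested Cyp promoter bins outside CGIs numbered 322 in place of 330. Cyp26b1 was at 83.4, 82.6, 83.9 and 86.4% at the start used here, whereas its other annotated start, at position 84538632 of chromosome 6, lies in a CGI at 1.14, 0.918, 0.695 and 1.16%. The body of Cyp26b1, with 34 CGI bins, was at 17.3, 14.5, 16.9 and 15.3%. Bodies of Cyp1b1 (14.5, 13.5, 6.47 and 8.29%) and Cyp26a1 (14.5, 16.2, 10.1 and 10.6%) were also low, and these were the 3 Cyp bodies below 20%.

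Genes that supply P450s with electrons had mostly unmethylated promoters. Por, which passes electrons to microsomal P450s, was at 0.407, 0.805, 1.01 and 0.965%. Fdx1 and Fdxr, its mitochondrial counterparts, were at 6.94, 6.88, 1.17 and 1.9% and at 2.97, 1.46, 2.65 and 1.62%. Of the listed partners, regulators and P450s with other names, the bile acid receptor Fxr (Nr1h4, 1.83, 0.935, 1.04 and 1.21%) and the vitamin D receptor Vdr (7.1, 1.29, 2.89 and 0.688%) were low and the adrenal factor Sf-1 (Nr5a1, 81.8, 85.9, 87.6 and 91.8%) was high. Hnf4a, a nuclear receptor of liver and gut, fell with age in both populations, from 35.4 to 13.6% in ISCs and from 32.6 to 13.6% in differentiated cells. It was the only promoter of the 21 in these lists that was called with age (losses were called in 1.22 and 1.14% of all promoters), and Cyb5r3, the cytochrome b5 reductase, was the only one called between populations, at 25.9, 34.2, 45.8 and 34.9%. The Cyb5r3 call was made at P0, when 0.365% of all promoters were called higher, and where the mean over its bins was 50.3% in ISCs and 47.7% in differentiated cells, so that it was not higher with bins weighted equally.

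The last exons of the Cyp4f genes stood apart from the bodies they close. The coding part of the last exon, measured over the CpGs in it, was at 7.62, 0.245, 0.789 and 0.403% in Cyp4f13. It was at 0, 0.437, 1.64 and 0.872% in Cyp4f16. It was at 0, 0.858, 5.02 and 0.224% in Cyp4f17. For the values of 0, the 122 and 235 calls of these libraries allow a level of up to 2.46% in Cyp4f16 and 1.28% in Cyp4f17. These 3 stretches were nearly unmethylated in all 4 libraries. The levels were 3.8, 0.794, 4.21 and 0.536% in Cyp4f40, 2.06, 6.69, 7.09 and 0.993% in Cyp4f18 and 9.7, 6.14, 9.39 and 8.74% in Cyp4f39. The highest were 14.6, 8.46, 16.2 and 9.09% in Cyp4f15 and 7.78, 12.4, 18.1 and 12.7% in Cyp4f14. So all 8 Cyp4f genes lay between 0 and 18.1%, on 2 chromosomes, at 79 to 1014 calls. In the same genes the bodies were at 62.2% or more in every library, Cyp4f16 reaching 89.1, 91.5, 90.1 and 91.1%.

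**Figure D2:**
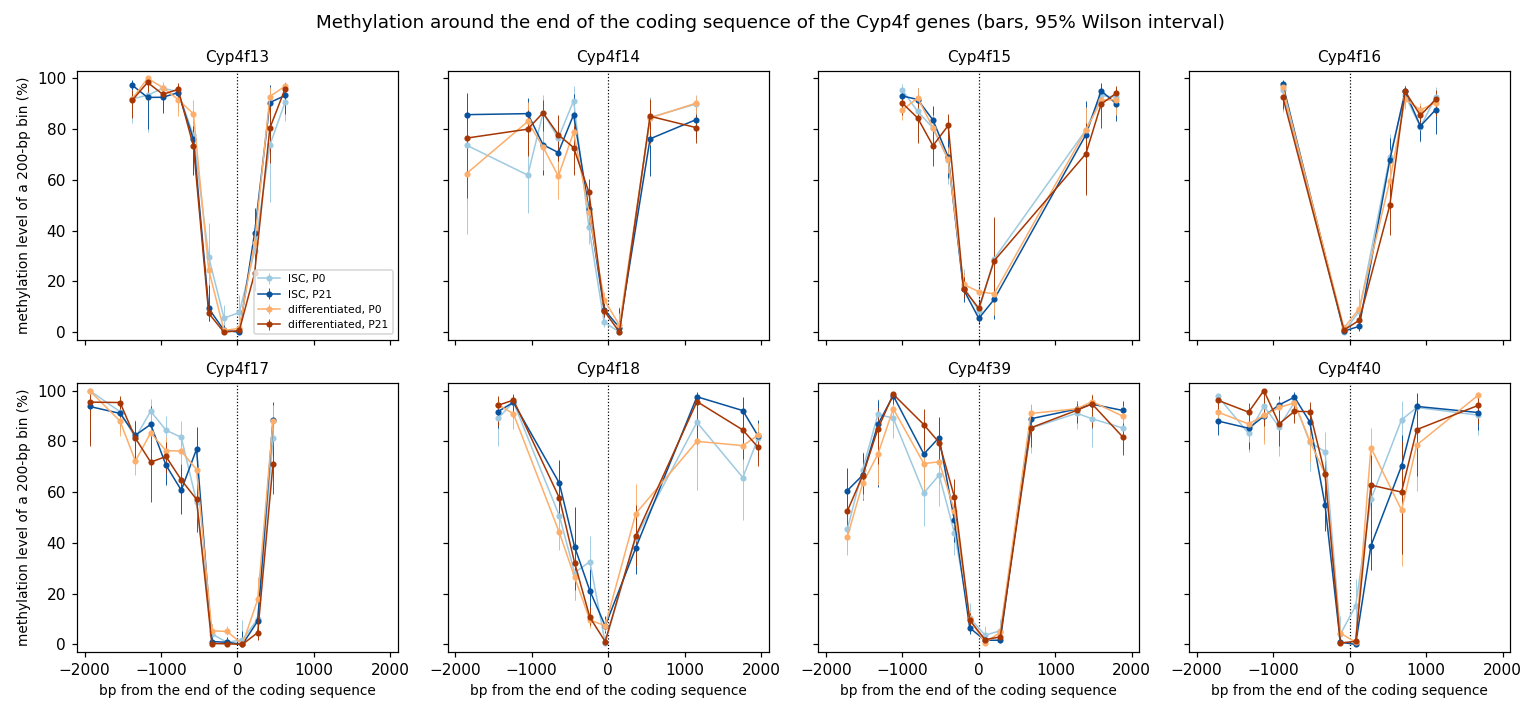
Methylation level (y axis, %) of tested 200-bp bins within 2000 bp of the end of the coding sequence (x axis, bp, dotted line at 0) of the 8 Cyp4f genes in the 4 libraries, with 95% Wilson intervals and lines that join tested bins. Each gene shows a dip at the end of the coding sequence between flanks that are mostly above 60%.

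The dip was narrow. Bins below 30% in every library numbered 1 to 4 per gene within 1000 bp of the end of the coding sequence, and the medians of the bins from 600 to 2000 bp away were between 73 and 96.4%. Of the 8 genes, Cyp4f13, Cyp4f15 and Cyp4f39 had 3 such low bins in a CGI, Cyp4f14 and Cyp4f18 had 1, and Cyp4f16, Cyp4f17 and Cyp4f40 had none in a CGI. The low bins of Cyp4f13 (chr17:33061601-33062200) lie partly within 1000 bp of another annotated start of that gene, at position 33062830. The bins within 1000 bp of that start, 2 of them in a CGI, were at 59.6, 51.3, 40.1 and 44.5%. In Cyp4f13 the dip is therefore not only a feature of the gene end. The Cyp4f coding ends held 6.29 to 9.71 CpGs per 100 bp, as the capitals in the printed sequences show, against a median of 1.81 in the other 90 Cyp genes. The ratio of observed to expected CpGs was 0.617 to 0.945 in Cyp4f genes and had a median of 0.319 in the others, but it did not separate low from high ends, since Cyp51 had a ratio of 1.15 at 90.8, 92.1, 85.2 and 90.3% and Cyp7b1 one of 0.888 at 83.8, 87.1, 89.1 and 83%. Over the other Cyp genes with at least 10 calls the same stretch had a median of 85.1, 86.5, 84.6 and 86.7%. Cyp4b1, printed above, held 3 CpGs there and was at 97, 94.4, 76.9 and 80%, at 15 to 39 calls. The only other Cyp gene as CpG-dense as the Cyp4f genes was Cyp26c1, at 1.21, 0.756, 0.839 and 1.23%.

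**Figure D3:**
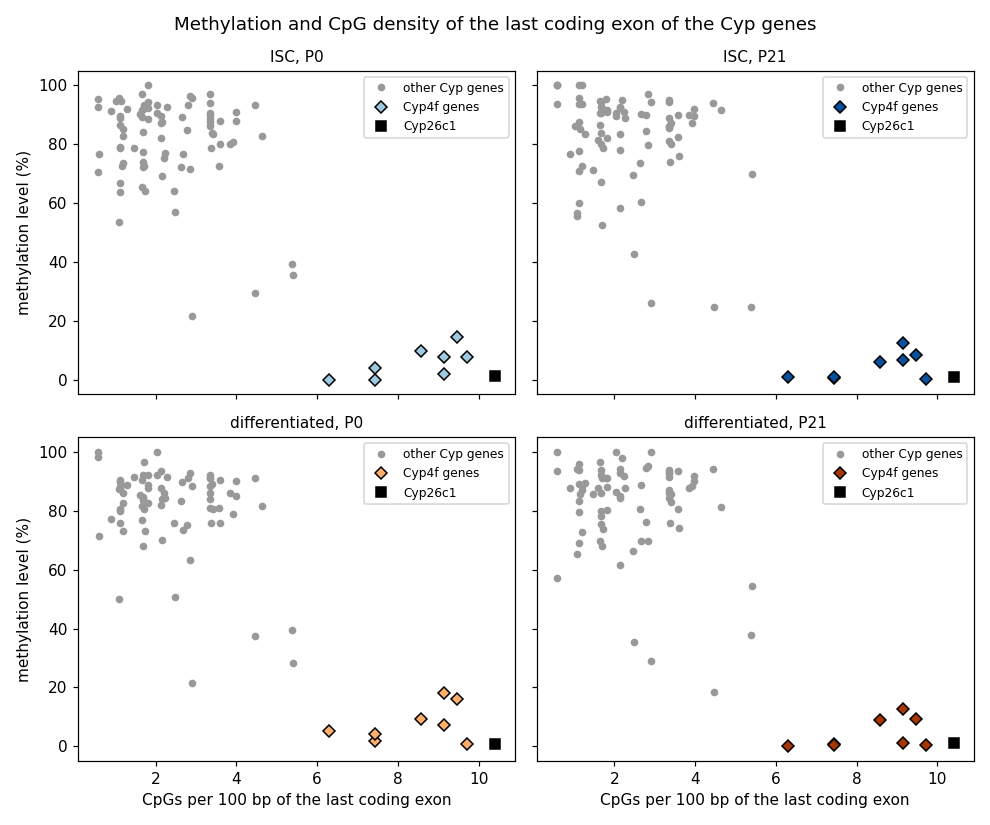
Methylation level (y axis, %) against CpGs per 100 bp (x axis) of the coding part of the last exon of each Cyp gene with at least 10 calls, 1 panel per library. The Cyp4f genes (diamonds) and Cyp26c1 (square) lie at the dense and unmethylated corner, and the other genes (circles) mostly above 50% at lower density.

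The coding ends are related sequences, so the genes are not independent examples: 7 of them are 175 bp long, and compared position by position they were 44 to 93.7% identical over 21 pairs (median 89.1%), the low values all being pairs with Cyp4f39. No gaps were allowed, so an inserted or missing base would lower the identity of a pair. The low values thus do not show that Cyp4f39 is more distant. Cyp4f15, at 169 bp, was not compared. Measured over whole bins of the last exon, 8, 9, 9 and 9 of 78 Cyp last exons were below 20%, and these were Cyp26c1 and the 8 Cyp4f genes, except that Cyp4f16 was above the limit in ISCs at P0. Over all genes 5.16, 5.24, 5.42 and 5.54% of last exons were below 20%. Among last exons of all genes with a CGI bin, 35.4, 33.9, 38.4 and 36.3% were below 20%, so that such low islands also occurred at the end of other genes. Over the whole region 0 of the 8 Cyp4f last exons were called with age (1.71% of all last exons gained and 1.83% lost in ISCs, 1.27 and 1.92% in differentiated cells), although 1 bin in that of Cyp4f40 (chr17:32813401-32813600) fell by 15.2 points in ISCs (adjusted p = 0.0145, Fisher's exact test). Between populations, the last exon of Cyp4f16 was lower in differentiated cells at P0 (23, 15.8, 5.97 and 5.11%, adjusted p = 5.82e-12, Fisher's exact test), but the mean over its 3 bins differed by only -2.27 points, since the bins had unequal shares of the calls. Across all genes, last exons called between populations were 0.542% higher and 0.542% lower at P0, and 0.313% higher and 0.422% lower at P21.

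The change with age was compared bin by bin, and a bin was called when two-sided Fisher's exact test on its calls had an adjusted p below 0.05 (Benjamini-Hochberg over all 4076373 tested bins) and the level moved by more than 15 points. In ISCs 42 Cyp bins in 27 genes gained methylation from P0 to P21 (1.16%, with 1.25% for the bins of all genes) and 36 bins in 22 genes lost it (0.995%, with 1.6%). In differentiated cells 40 bins in 23 genes gained (1.11%, with 1.21%) and 69 bins in 40 genes lost (1.91%, with 2.0%). In some settings ISC losses outnumbered ISC gains. Bins shifted by 100 bp gave 33 gains and 53 losses in ISCs, and calls thinned to the lowest library gave 21 and 27. Over all their bins, the Cyp genes changed at rates no higher than the background. Their bins were shallower, at a median of 54, 57, 83 and 70 calls against 59, 63, 91 and 76 for all genes. These rates were not adjusted for that difference. Of the gaining bins 9 were called in both populations, which share no library but may share animals (not stated in the sources used here), 21.4% of those in ISCs and 22.5% of those in differentiated cells, where the bins of all genes shared 27.4 and 28.3%. Of the losing bins 18 were, 50% and 26.1%, where all genes shared 48.5 and 38.8%.

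In promoters a larger share of Cyp bins was called with age than of all bins. The Cyp4f genes held many of the losses in ISCs and Cyp26c1 many of the gains in differentiated cells. Losses in differentiated cells were spread over 17 genes. Losses were called in 15 of 419 Cyp promoter bins in ISCs (3.58%, with 1.27% of the promoter bins of all genes) and in 22 in differentiated cells (5.25%, with 1.55%). Since few Cyp promoters have a CGI, the same share was taken over bins outside CGIs, where losses were 4.55 and 6.67% in Cyp promoters and 2.38 and 2.93% in those of all genes. Gains outside CGIs were 2.42 and 3.03%, with 1.75 and 1.86%. Without the Cyp4f genes the losses outside CGIs were 2.41% in ISCs, near the 2.38% of all genes, and 5.5% in differentiated cells. Without Cyp26c1 the gains were 1.86 and 1.55%, near or below those of all genes. The losing promoter bins came from 11 genes in ISCs and 17 in differentiated cells. The difference between these shares was not tested, since bins of a promoter are not independent.

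Over whole regions, 4 Cyp promoters of 89 lost methylation in ISCs, with 1.22% of all promoters, and 1 gained, with 0.697%. In differentiated cells 4 lost, with 1.14%, and 3 gained, with 0.629%. Of 78 last exons 2 gained in ISCs, with 1.71% of all last exons, and 0 lost, with 1.83%. In differentiated cells 1 last exon gained, with 1.27%, and 2 lost, with 1.92%. By role, the called promoters were Cyp26c1 of 3 retinoic acid genes, Cyp4f14 and Cyp4b1 of 10 listed fatty acid genes, Cyp11a1 of 6 steroid genes and Cyp3a11 of 10 listed genes for foreign compounds in families 2 and 3. The listed cholesterol and bile acid genes (7), vitamin D genes (3) and family 1 genes (3) had 0 called promoters with age. Single promoter bins were called in 6 of these genes. In ISCs a bin of Cyp1a2 gained (42.3 to 77.4%), as did 1 of Cyp27a1 (45.8 to 78.7%) and 2 of Cyp46a1, and 1 of Cyp7b1 lost (51 to 13.5%). In differentiated cells a bin of Cyp1a1 gained (10.6 to 26.5%), as did 1 of Cyp46a1 (48.4 to 65.4%), while 2 of Cyp7b1 and 1 of Cyp8b1 (71.1 to 47.6%) lost. Cyp2j5, Cyp4f40, Cyp2b19 and Cyp2t4 were called outside these lists. Of the 97 measured bodies 0 were called in any comparison, where 0.103 to 0.804% of all bodies were.

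Cyp26c1 was the only Cyp promoter with a called gain of methylation in both populations. In ISCs it rose from 45.6% (42.2 to 49.0) to 66.0% (62.9 to 69.0), with an adjusted p = 1.07e-15 by Fisher's exact test over all promoters. In differentiated cells it rose from 44.5% (42.2 to 46.8) to 64.5% (62.2 to 66.8), with an adjusted p = 1.45e-30 by Fisher's exact test. The intervals of the 2 ages did not overlap in either population, while the populations lay within 2 points of each other at each age. In differentiated cells 5 adjacent bins upstream of the TSS gained together, chr19:37759001-37760000, at 41.8, 66.7, 43.3 and 69.3%, and in ISCs 2 of these bins were called, chr19:37759401-37759800, at 41.2, 70.5, 41.9 and 69.6%. The bin printed above as Cyp26c1 upstream was at 45.6, 76.8, 44.3 and 75.6%, and each of its 7 CpGs was higher at P21 in both populations. The CpG at position 37759721 went from 13.6 to 72.0% in ISCs and from 22.5 to 70% in differentiated cells. The gain was thus shared by neighbouring CpGs and bins.

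A second run of gains lay in the island that begins in intron 1 of Cyp26c1. The 3 bins of chr19:37760801-37761400, called in differentiated cells, were at 21.3, 54.5, 26.3 and 47.3%, and the first 2 of them were called in ISCs, at 19.6, 54.4, 23.7 and 45.5%. The bin that covers exon 2, printed above, went from 14.2 to 55.4% in ISCs (adjusted p = 5.53e-12, Fisher's exact test) and from 20.3 to 45.1% in differentiated cells (adjusted p = 1.37e-10). Its CpGs moved unequally, the third from the 5′ end being at 10, 91.3, 51.1 and 78.0% and the fourth at 16.7, 20.8, 17.8 and 37.5%. The bin centred 1430 bp after the TSS, next to this run and in the same island, stayed low at 6.03, 8.28, 5.54 and 11.8%. At P21 the level thus dropped between adjacent bins of 1 island. The neighbouring Cyp26a1 promoter moved by less than 2 points.

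**Figure D4:**
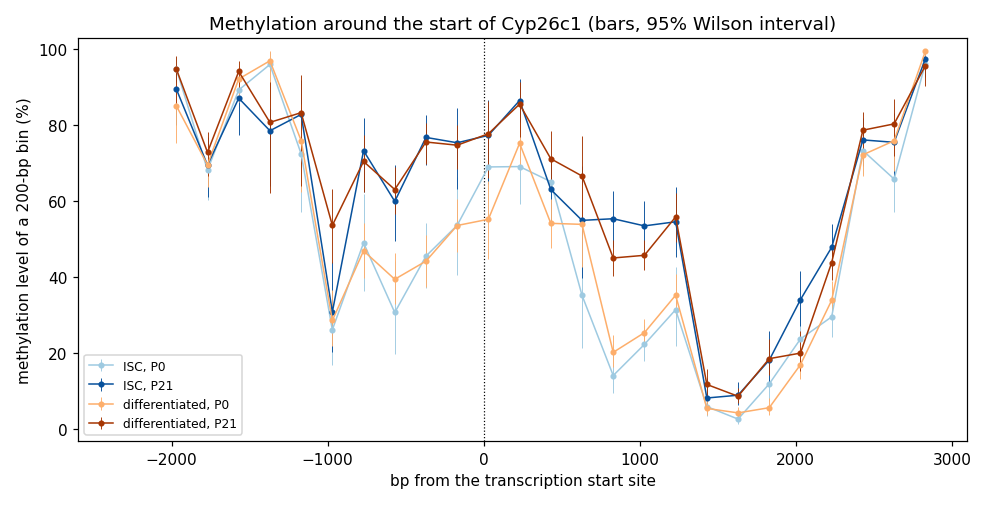
Methylation level (y axis, %) of tested 200-bp bins by distance from the TSS of Cyp26c1 (x axis, bp, dotted line at 0) in the 4 libraries, with 95% Wilson intervals. From 970 bp before to 1230 bp after the TSS the P21 libraries (dark) mostly lie above the P0 libraries (light), and over the next 3 bins all 4 lie below 20%.

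Other gains of runs were in introns and early exons. In ISCs intron 3 of Cyp2b19, a P450 known from skin, gained over 2 bins (chr7:27546401-27546800) and was at 32.1, 80.9, 56 and 70.4%. Intron 1 of Cyp46a1 (chr12:109573001-109573400), 1 of whose bins lay in a CGI, was at 34.9, 54.2, 31.1 and 44.5%. These bins are the 2 gaining promoter bins of Cyp46a1 in ISCs given above. Intron 1 of Cyp2s1 (chr7:26600201-26600600) gained in both populations and was at 66.6, 84.7, 65.3 and 87.3%. In this run the 2 populations were within 3 points of each other at each age. Another annotated start of Cyp2s1, at position 26600411 of chromosome 7, lies inside the run. The bins within 1000 bp of that start were at 43.3, 53.6, 39.5 and 54.6%. In differentiated cells 2 bins around exon 2 of Cyp4f17 (chr17:32643801-32644200) gained and were at 44.7, 68.7, 41.1 and 68.1%.

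Gains of whole regions were also called at last exons. The last exon of Cyp2w1, 1 bin, went from 35.5% (27.6 to 44.4) to 69.8% (63.3 to 75.6) in ISCs (adjusted p = 8.84e-08, Fisher's exact test) and from 28.2% (24.1 to 32.7) to 54.4% (49.1 to 59.6) in differentiated cells (adjusted p = 1.3e-11). At P21 the last exon was lower in differentiated cells than in ISCs by 15.4 points (adjusted p = 0.0117 over all last exons, Fisher's exact test), but as a bin, adjusted over all bins, the same difference was not called (adjusted p = 0.087, Fisher's exact test), and no Cyp region was called at P21 with the calls thinned. This gain lay at the other end of the gene from the loss described below. Cyp2c69 gained at its last exon in ISCs, at 75.4, 95.1, 86.2 and 97.9% and 47 to 81 calls. In differentiated cells the promoters of Cyp11a1 (49.2, 57.1, 46.7 and 62.7%, adjusted p = 3.78e-05) and Cyp3a11 (adjusted p = 0.0345) gained by Fisher's exact test, the latter from 54.1% (38.4 to 69.0) to 90% (69.9 to 97.2). Over bins weighted equally the Cyp11a1 gain was 9.61 points and was not called. The Cyp3a11 promoter was 1 bin, and as a bin, adjusted over all bins, its gain was not called.

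Losses near the start were deep in several genes. The bin of Cyp2w1 centred 470 bp before the TSS fell from 66.7 to 8.70% in ISCs (adjusted p = 1.61e-10, Fisher's exact test) and from 47.8 to 21.1% in differentiated cells (adjusted p = 0.000117). Its 3 CpGs are those in capitals in the printed sequence. They were at 84.2, 12.9, 46.4 and 45.2%, at 55.6, 6.90, 50 and 11.6%, and at 58.8, 6.25, 47.0 and 8.33%, in order from the 5′ end. All 3 were low in ISCs at P21, and the first was not in differentiated cells. Every other tested bin of the promoter was at 5.88% or less in every library, so that the bin was an isolated methylated stretch at P0. Farther upstream, outside the promoter, the bin centred 1470 bp before the TSS was at 76.5, 14.5, 59.6 and 31.5% and that at 1670 bp was at 59.5, 21.4, 78.2 and 26.3%.

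Cyp2j5, an arachidonic acid epoxygenase best known from kidney, lost methylation over its promoter in both populations, from 71.9% (64.5 to 78.3) to 36.9% (29.4 to 45.1) in ISCs (adjusted p = 5.45e-08, Fisher's exact test) and from 83.7% (77.1 to 88.6) to 45.2% (37.0 to 53.6) in differentiated cells (adjusted p = 1.92e-10). The bin over exon 2 printed above carried the deepest loss, at 63.9, 9.52, 72.5 and 3.28% (adjusted p = 1.04e-09 in ISCs and 9.15e-15 in differentiated cells, Fisher's exact test). The bin over the TSS was at 72.4, 26.8, 87.5 and 44.4%, and the bin between them, centred 344 bp after the TSS, stayed at 94.1, 94.6, 93.9 and 100%. The TSS bin was called in ISCs but not in differentiated cells (adjusted p = 0.0654, Fisher's exact test, at 24 and 27 calls). The first CpG of the printed stretch, from the 5′ end, was at 84.8, 20, 95.2 and 6.25%. Cyp3a13 showed a deep loss inside the gene. The bin at its exon 4 was at 47.1, 4.04, 54.4 and 0% (adjusted p = 7.77e-09 in ISCs and 5.92e-11 in differentiated cells, Fisher's exact test), and each of its 5 CpGs was at 11.1% or less at P21. The CpGs at positions 138356806 and 138356803 had only 3 calls each in differentiated cells at P21. Over the whole bin in that library, 0 of 54 calls were methylated, which allows a level of up to 5.56%.

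Cyp4b1, which oxidises medium-chain fatty acids, lost methylation at the TSS itself. The bin centred 13 bp after the TSS was at 64.4, 12.9, 65.6 and 25.6% (adjusted p = 1.71e-16 in ISCs and 3.09e-16 in differentiated cells, Fisher's exact test), and with the bin before it the run chr4:115320201-115320600 was called in differentiated cells. A bin in intron 1 of Cyp4b1, centred 4214 bp after the TSS, fell as deeply, at 61, 8.75, 65.2 and 11.3%. The bins centred 613 to 1013 bp after the TSS stayed at 85.9% or more. Over the whole promoter the call was made in differentiated cells, at 72, 62.4, 80.8 and 61%, where the mean over bins fell by 13.1 points and was not called.

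**Figure D5:**
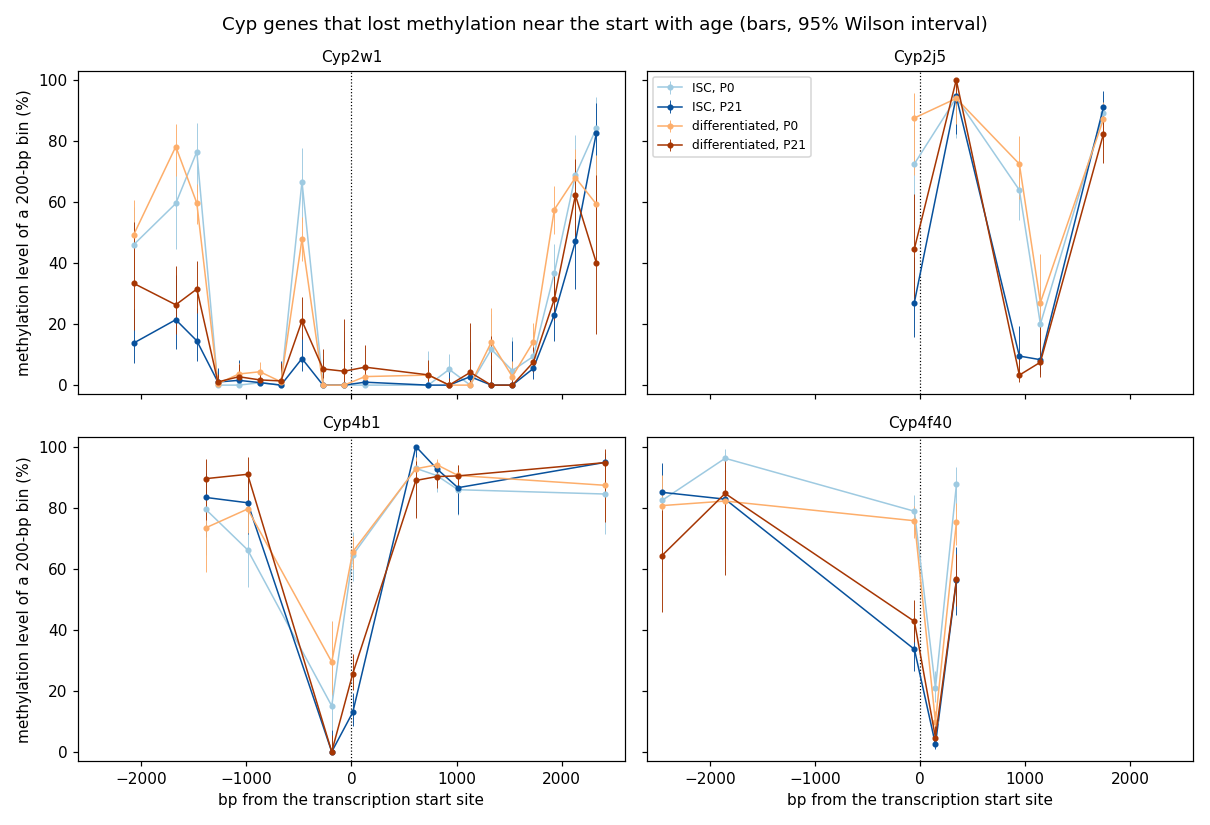
Methylation level (y axis, %) of tested 200-bp bins by distance from the TSS (x axis, bp, dotted line at 0) of Cyp2w1, Cyp2j5, Cyp4b1 and Cyp4f40 in the 4 libraries, with 95% Wilson intervals and lines that join tested bins. At the bins next to the TSS, or 470 bp before it in Cyp2w1, the P21 libraries (dark) lie below the P0 libraries (light).

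The Cyp4f subfamily held 8 of the 15 losing promoter bins in ISCs and 6 of the 22 in differentiated cells. It also held 1 gaining promoter bin in ISCs and 2 in differentiated cells. Cyp4f40 fell from 52.7% (48.3 to 57.0) to 22.3% (18.6 to 26.5) in ISCs (adjusted p = 2.56e-19, Fisher's exact test), over 3 adjacent bins (chr17:32796201-32796800). In differentiated cells its promoter went from 44.8 to 30.6% and was not called as a region, although 2 of its bins were. The bin over its TSS was at 78.8, 33.6, 75.7 and 42.7%. Cyp4f14, which hydroxylates leukotriene B4, fell from 67.3 to 42.2% in ISCs (adjusted p = 1.57e-06) and from 66.1 to 49.1% in differentiated cells (adjusted p = 0.00011, Fisher's exact test). With a minimum of 20 calls per bin it fell by 14.6 points in differentiated cells and was not called. Its bin centred 478 bp before the TSS was at 46.1, 2.94, 48.3 and 6.19%. Cyp4f13 held 2 losing promoter bins in each population, its promoter being at 21.8, 16.1, 25 and 14.8%, and in ISCs a run in its intron 9 (chr17:33064401-33064800) was at 52.1, 21.3, 53.9 and 27.6%. Cyp4f16 had 1 losing promoter bin in both populations (chr17:32673801-32674000, 41.8, 11.8, 50 and 20.7%). The Cyp4f15 promoter was at 64.1, 74.8, 74.7 and 78.4% and was not called in either population, and Cyp4f17 and Cyp4f18 had no losing promoter bin.

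Further losses were called in 1 population as regions or runs. Cyp2b19 lost in ISCs from 94.7% (85.6 to 98.2) to 74.7% (63.8 to 83.1) at its promoter, which was 1 bin (adjusted p = 0.0142, Fisher's exact test). As a bin, adjusted over all bins, the same loss was not called. In ISCs a bin in intron 1 of Cyp7b1, 78 kb from its TSS (chr3:18065201-18065400), fell by 57.0 points to 23.5%, and in differentiated cells it was at 77.8 and 58.8%. In differentiated cells 2 bins upstream of Cyp2j9 (chr4:96258401-96258800) fell and were at 32, 6.9, 40.5 and 12.1%, and 2 bins around exon 5 of Cyp4x1 (chr4:114794401-114794800) fell and were at 34.1, 19.4, 50.8 and 20.4%. The second bin of Cyp2j9 was called in ISCs too. The last exons of Cyp2j9 and Cyp2f2 fell in differentiated cells, at 79.1, 64.7, 88.1 and 70% and at 37, 34.8, 43.4 and 27.2%. With bins weighted equally Cyp2f2 fell by 14.4 points and was not called.

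Between populations few Cyp bins differed. At P0, 8 bins were higher in differentiated cells (0.221%, with 0.286% for the bins of all genes) and 8 were lower (0.221%, with 0.222%). At P21, 2 were higher (0.0553%, with 0.0673%) and 4 were lower (0.111%, with 0.114%). Of the 419 Cyp promoter bins 0 were called at either age, where the promoter bins of all genes were called in 0.189% (higher) and 0.215% (lower) at P0 and in 0.069 and 0.11% at P21. The share of called bins was close to that of all genes at both ages. With calls thinned to the lowest library, 0 Cyp bins were called at P0 and 3 at P21, so that none of the P0 calls given next held at equal depth.

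The called bins lay in gene bodies, none of them next to another. At P0 the largest were higher in differentiated cells in intron 6 of Cyp2j12 (chr4:95779201-95779400, 37.2, 60, 81.2 and 50%), lower in intron 7 of Cyp2c66, an arachidonic acid epoxygenase of the gut (chr19:39254801-39255000, 97, 95.3, 57.6 and 84.9%), and higher at exon 8 of Cyp4v3 (chr8:46395601-46395800, 15.6, 10.3, 50.7 and 22%). In Cyp4f18 the bin at the start of its last exon (chr8:74512601-74512800) was lower in differentiated cells at P0, at 32.6, 21.1, 9.57 and 10.6%. At P21 the largest were in intron 4 of Cyp2u1 (chr3:130994801-130995000, 64.7, 62.5, 55.3 and 11.4%), in intron 8 of colon-enriched Cyp2c55 (chr19:39113001-39113200, 65.6, 93.2, 75 and 46.7%) and in intron 1 of Cyp7b1, the bin given above, which was 35.3 points higher in differentiated cells.

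Over whole promoters, 2 were called higher in differentiated cells at P0 (0.365% of all promoters) and 1 at P21 (0.307%), and 0 were called lower (0.877 and 0.57%). With calls thinned, 0 Cyp regions were called at either age. The values behind these calls moved with how the reads were spread over bins. The promoter of Cyp2c70, a bile acid hydroxylase of rodents, was at 77.9, 73.9, 94 and 90.5%, but its 2 bins were at 0, 1.19, 0 and 2.56% near the TSS and at 97.7, 99.6, 96.7 and 99% inside the gene, and at P0 the bin near the TSS held 14 calls in differentiated cells and 55 in ISCs, with 490 and 216 in the other bin. At P0 the 0 values near the TSS allow a level of up to 5.45% for the ISC library and 21.4% for the differentiated one. The mean over the 2 bins was 48.8, 50.4, 48.4 and 50.8%. Cyp2t4 was at 33.1, 41, 52.6 and 34.2%, and the mean over its 7 bins was 52.3, 52.0, 51.3 and 51.1%. Its promoter loss with age in differentiated cells was not seen over bins weighted equally, although the bin over its TSS (chr7:27938601-27938800) fell there from 22.1 to 0.735% (adjusted p = 2.08e-15, Fisher's exact test).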

How the data were processed

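For each library the authors aligned bisulfite reads to mm9 with Bismark and Bowtie (versions not given in the sources used here) and deposited, for each listed cytosine position, counts of methylated and of all calls and the methylated fraction. The deposited fraction equalled the ratio of the counts within 1e-05 in every line and was not used further. Positions at no CpG of the mm9 reference (0.469 to 0.86% of each library) were left out, and strands were summed. Bins of 200 bp were tested from 2 CpGs and 10 calls. A region held the tested bins whose midpoint lay in the promoter (within 1000 bp of the TSS), the last exon or the remaining body of the transcript with the longest coding sequence, in that order. Levels of the 2 ages within a population, and of the 2 populations at an age, were compared by two-sided Fisher's exact test on summed calls with Benjamini-Hochberg adjustment over all bins or all genes. Calls needed an adjusted p below 0.05 and more than 15 points. The difference between 2 changes with age was tested by a z test. These tests cover counting error only and, like the intervals, take the calls of neighbouring CpGs as independent. The scripts were tested on simulated data and used Python 3.11.15, numpy 2.4.6, scipy 1.17.1 and pandas 2.3.3. Alternatives changed the minimum of calls or CpGs, the size of difference, the depth, the bin edges, the transcript, the promoter width and the weighting of bins, and shares of promoter bins were also taken without Cyp26c1 or the Cyp4f genes, which was chosen after seeing the data. The members and lists were chosen with earlier results of these data known. Named were the genes with a fixed role, the 5 largest called regions per direction and comparison, the 4 longest runs of called bins per direction and population (3 for differentiation), genes with no tested bin and island promoters above 20%. Other features described, among them the Cyp4f coding ends, single bins within named genes and Cyp4f subfamily members, were chosen after their values were seen.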

Additional observations from a re-analysis of the deposited data

Results flagged for a closer look

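Changes with age that differed between the populations are given as the change in differentiated cells minus that in ISCs, in points, where that quantity exceeded 15 points in size and passed the z test at an adjusted p of 0.05. Among 4076373 bins 15881 passed, 7673 of them among the 1898433 bins of all genes and 12 among the 3617 Cyp bins. Among 20520 promoters 197 passed, 3 of them among the 89 Cyp promoters. Of 17541 bodies 77 passed and of 16594 last exons 203 passed. Of these, 0 were among the 97 Cyp bodies and 78 Cyp last exons. Since so few of all bodies and last exons passed, this 0 does not set the Cyp genes apart.

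In 3 promoters the changes differed. Cyp4f40 fell less in differentiated cells, with a difference of 16.26 points. Cyp2t4 differed by -26.37 points, with the unequal weight of its bins given above. Cyp3a11, with 20 to 51 calls in 1 bin, differed by 46.24 points.

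In bins, the difference was 57.25 points in Cyp7b1 (chr3:18090001-18090200), where ISCs went from 96.8 to 76.7% and differentiated cells from 62.9 to 100%, at 21 to 35 calls. It was 40.15 points in intron 4 of Cyp2w1 (chr5:139831001-139831200), 49.51 in Cyp4v3 (chr8:46416401-46416600), 25.22 in Cyp8b1 (chr9:121824001-121824200) and 20.76 in Cyp2d22 (chr15:82208001-82208200). In these 5 bins ISCs were lower at P21 than at P0, and differentiated cells were higher except in Cyp8b1. The Cyp8b1 bin fell from 89.4 to 62.8% in ISCs and was at 79.1 and 77.8% in differentiated cells.

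In the other 7 bins the change was lower in differentiated cells. The difference was -53.95 points in Cyp2j12 (chr4:95779201-95779400), -42.89 in Cyp2b19 (chr7:27546401-27546600), -38.48 in Cyp4f13 (chr17:33084801-33085000) and -27.62 in Cyp26a1 (chr19:37774001-37774200). It was -50.72 and -55.94 points in a pair of bins of Cyp2c55 (chr19:39081001-39081200 and chr19:39113001-39113200) and -67.71 in Cyp2c40 (chr19:39887601-39887800). At both Cyp2c55 bins ISCs rose, from 69.8 to 91.2% and from 65.6 to 93.2%, and differentiated cells fell, from 92.7 to 63.4% and from 75 to 46.7%, at 30 to 61 calls.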

How the results depend on the processing

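Counts of Cyp bins are given as gains and losses in ISCs, gains and losses in differentiated cells, and bins between populations at P0 and at P21, and were 42, 36, 40, 69, 16 and 6. With a minimum of 4 CpGs they were 23, 21, 27, 26, 9 and 6, with a difference of more than 30 points 18, 22, 6, 27, 8 and 3, and with more than 15 points and no test 271, 234, 186, 248, 403 and 340. With every bin thinned to its lowest library they were 21, 27, 12, 32, 0 and 3 bins, the differentiated libraries being the deeper ones (a median of 83 and 70 calls per bin against 54 and 57 in ISCs). A minimum of 20 calls, bins shifted by 100 bp, bins of over 1000 calls left out and the transcript of longest span kept all 6 counts within 1.5 times. Regions called in ISCs with age, in differentiated cells with age, at P0 and at P21 numbered 7, 10, 3 and 2. They were 14, 17, 8 and 6 with more than 10 points, 12, 11, 4 and 1 with a promoter of 500 bp on each side, 9, 8, 0 and 0 when thinned, 7, 7, 0 and 1 with bins weighted equally, and 8, 9, 2 and 1 with a minimum of 20 calls. The higher promoter level of Cyp2c70 in differentiated cells turned at P0 to -0.951 points with 20 calls and -0.475 with bins weighted equally, and at P21 to -0.57 with 20 calls. That of Cyp2t4 at P0 turned to -0.94 with bins weighted equally. With bins weighted equally, 6 more of the 22 called regions fell short of the threshold in the same direction, and 14 held. No paired analysis was possible because each comparison set 1 library against 1 library. At 54 to 83 calls per bin the depth limits changes that can be called, and with 1 library a group no value here separates a group from its animals or its library.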
